A study of Mus musculus with 4 samples.

Results

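Sox3, Pou3f2 and Pou3f3 are 3 transcription factor genes of the developing brain, and each was measured by 1 probe on arrays that held 6856 probes and 6041 named genes. All 3 had log2 ratios below 0, with the sign as deposited, on every array. The genes were chosen by these very log2 ratios on the 4 arrays, seen in an earlier look at the same data, so their values are given as a description and were not tested.

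The arrays compared neocortex RNA of mouse embryos between null mutants and controls. The labels call the mutants synaptically silent. Embryos were on a C57BL/6 background and had reached embryonic day 16. On each of 4 two-colour arrays, total RNA of a different null sample was set against a pool made from 4 control replicates, and the pool was common to all arrays. The labels count the null samples as biological replicates. The null RNA carried the dye Cy3 on replicate 1 and Cy5 on replicates 2, 3 and 4, with the control pool in the other dye. For replicate 1 the labels disagree, since the null RNA has day 14 in its source name and day 16 elsewhere. How many embryos made up a null sample is not given in the sources used here. The targeted gene was not analysed here, so the labels of the null samples have no check from it. The series title asks which genes synaptic activity regulates.

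Sox3 belongs to the SoxB1 group of HMG-box factors, together with Sox1 and Sox2. SoxB1 proteins keep neural progenitors in an undifferentiated state, and Sox3, which lies on the X chromosome, is also needed in the developing hypothalamus and pituitary. Pou3f2 (Brn2) and Pou3f3 (Brn1) are class III POU factors with a bipartite DNA-binding domain. In the neocortex they act with overlapping roles in late progenitors and in the production and migration of upper-layer neurons. Sox and POU proteins often bind DNA side by side, as on the enhancer of the intermediate filament gene nestin in neural progenitors.

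A log2 ratio of 0 means equal signal in both channels. Neither the numerator of the deposited ratios nor whether replicate 1 was already turned is given in the sources used here, so a negative value cannot be read as lower or higher in the null. Replicates 2 to 4 run the same way whichever channel is on top, and means over these 3 arrays are used below. Within them, the dye and the genotype cannot be told apart. All arrays share the pool, which counts as 1 control sample, so the spread between controls is not in any error given here. In bulk tissue, fewer cells of a type and less RNA per cell cannot be told apart.

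Between 5777 and 5873 probes had a value on each array, with medians from -0.031 to 0.0044 and an SD over probes of 0.40 to 0.63, widest on replicate 3. For arrays, their number limits the precision, and signal over background is unknown here. No member was spotted repeatedly, so the error of a spot cannot be had from the members themselves. The 78 spots of the glycolytic enzyme Gapdh had an SD of 0.09 to 0.20 on the 4 arrays. Across the 5687 probes with a value on every array, Pearson's r between replicate 1 and the other arrays lay between -0.12 and 0.077, and among replicates 2 to 4 between -0.0022 and 0.24. These correlations are across probes, which are not independent replicates, and all arrays share the pool. Of 7 measured marker genes of neocortex, 6 had a mean below 0 over replicates 2 to 4, where 52.9% of all genes did. A ratio gives no level, so the tissue label was not checked.

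Sox3 (probe for NM_009237) had a log2 ratio of -0.54, -0.82, -0.64 and -0.39 on replicates 1 to 4 in turn. Its lowest value was thus on replicate 2 and its highest on replicate 4. The mean over replicates 2 to 4 was -0.62 ± 0.21 (SD, n = 3), a ratio 1.53-fold away from equal signal. Replicate 1 lay inside the range of the 3 arrays of the other dye orientation. At or below Sox3 were 10.9%, 3.40%, 8.71% and 9.94% of all probes on replicates 1 to 4 in turn.

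Pou3f2 (probe for NM_008899) had -0.83, -0.53, -0.43 and -0.62 on replicates 1 to 4 in turn. It varied least of the members over replicates 2 to 4, with a range of 0.19 against 0.43 for Sox3 and 0.62 for Pou3f3. Its mean over those arrays was -0.52 ± 0.10 (SD, n = 3), or 1.44-fold in size, and replicate 1 lay below all of them. The share of probes at or below Pou3f2 was 4.13%, 8.37%, 17.6% and 3.98% on replicates 1 to 4 in turn.

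Pou3f3 (probe for NM_008900) had -1.11, -0.44, -0.85 and -0.23 on replicates 1 to 4 in turn. Replicate 1 held the lowest value of any member on any array, and replicate 4 the one nearest to 0. The mean over replicates 2 to 4 was -0.51 ± 0.31 (SD, n = 3), or 1.42-fold in size. At or below Pou3f3 were 2.06%, 11.7%, 4.71% and 19.9% of probes on replicates 1 to 4 in turn.

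**Figure D1:**
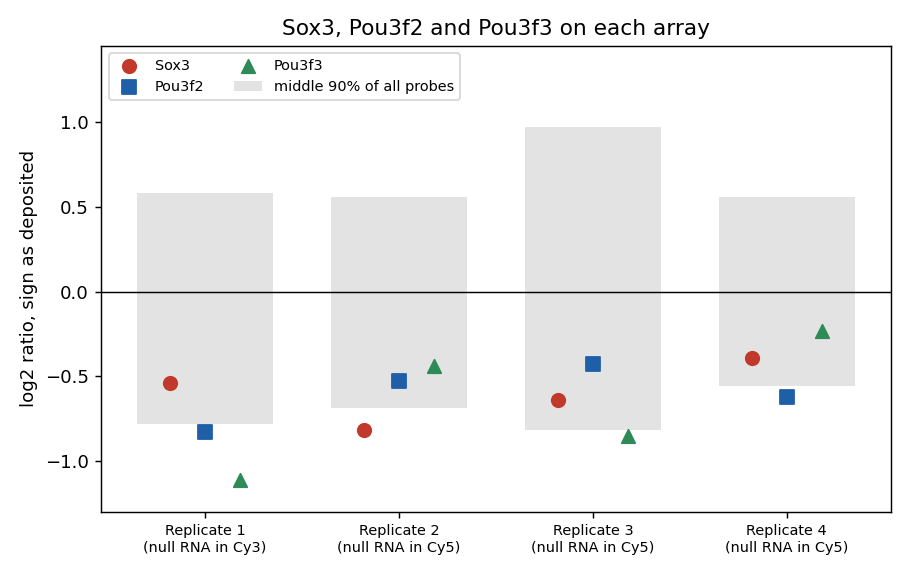
Log2 ratio, with the sign as deposited, of Sox3 (circles), Pou3f2 (squares) and Pou3f3 (triangles) on each of the 4 arrays. Grey bars span the middle 90% of all probes of that array. Every point is below 0, from -1.11 (Pou3f3, replicate 1) to -0.23 (Pou3f3, replicate 4), and on each array at least 1 member lies below the grey bar and at least 1 inside it.

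No order of the members held over the arrays. Pou3f3 was the lowest on replicates 1 and 3, Sox3 on replicate 2 and Pou3f2 on replicate 4. Sox3 minus Pou3f2 was 0.29, -0.29, -0.22 and 0.23 on replicates 1 to 4, with a mean of -0.09 ± 0.28 (SD, n = 3) over replicates 2 to 4. Between both POU genes the difference, Pou3f2 minus Pou3f3, was 0.28, -0.08, 0.42 and -0.39, with a mean of -0.02 ± 0.41 (SD, n = 3). Each of these mean differences was smaller than its own spread.

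The values of replicate 1 mean different things under each reading of the deposited signs. If replicate 1 had been turned before deposit, all 4 arrays run the same way, and the means over 4 arrays are -0.60 ± 0.18 for Sox3, -0.60 ± 0.17 for Pou3f2 and -0.66 ± 0.39 for Pou3f3 (SD, n = 4). If the ratio was of fixed dyes, replicate 1 has to be turned, and its values become 0.54, 0.83 and 1.11. The 4 arrays then oppose each other, and the means are -0.33 ± 0.61, -0.19 ± 0.68 and -0.10 ± 0.85 (SD, n = 4). The sources used here do not settle which reading applies, so a difference that follows the genotype and one that follows the dye cannot be told apart.

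**Figure D2:**
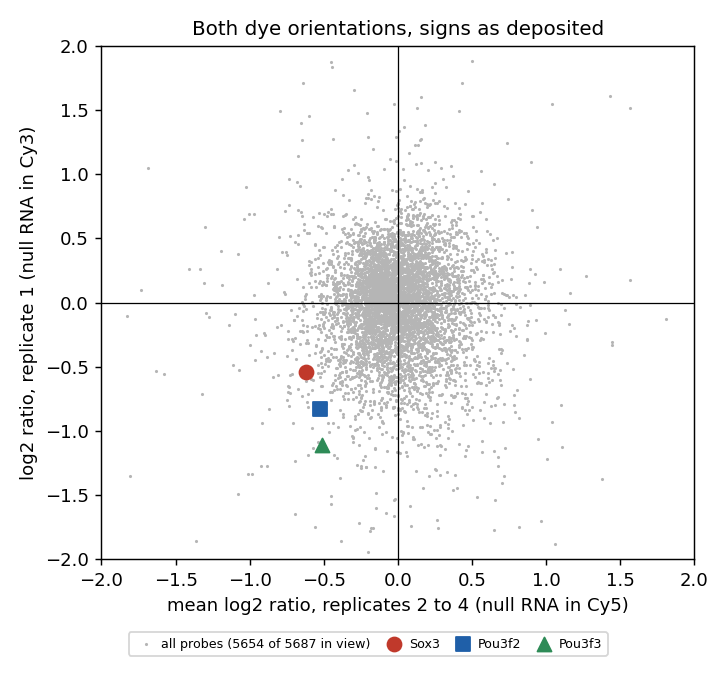
Each dot is a probe, with its mean log2 ratio over replicates 2 to 4 (null RNA in Cy5) on the horizontal axis and its log2 ratio on replicate 1 (null RNA in Cy3) on the vertical axis, signs as deposited. Sox3, Pou3f2 and Pou3f3 lie at the lower left, where both values are negative, at -0.62 and -0.54, -0.52 and -0.83, and -0.51 and -1.11, at the edge of a cloud that has no clear slope. Axes end at 2 in size, and the few probes beyond are not drawn.

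Values below 0 on all 4 arrays as deposited were found for 395 of the 5024 genes measured on every array, a background of 7.86%, and values above 0 for 400, or 7.96%. The members are among the 395 through the choice made, and nothing is read from it. On every array, 44 of 5687 probes, or 0.774%, were at or below -0.23, the member value nearest to 0. On the positive side, 30 probes, or 0.528%, were at least that far from 0 on every array. The members set this cutoff and are among the 44 by construction, so nothing about them is read from these shares.

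Adjusted over all 5720 probes with values on replicates 2 to 4, limma called none of them (0%) at an adjusted p under 0.05. Before adjustment, limma gave 553 probes (9.67%) a p under 0.05, of which 232 (4.06%) were negative and 321 (5.61%) positive. On 4 arrays, limma called 2 probes (0.0352%) with replicate 1 as deposited and 0 with it turned, and 405 (7.12%) and 480 (8.44%) had an unadjusted p under 0.05. Without replicate 2, the number at an unadjusted p under 0.05 in limma fell from 553 to 236. These rates are the background for the counts of other genes that follow.

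The promoters of both POU genes are shown because the members lay on the same side of 0 on every array, and their sequence played no part in the choice. Each run holds the 250 bases before the RefSeq start of the gene in build GRCm38.p6, 5′ to 3′ along the strand of the gene, with capitals marking each CCAAT. The sequence table had no match for Sox3. Pou3f2 is at chr4:22488367-22488616 on the minus strand and Pou3f3 at chr1:42695518-42695767 on the plus strand.
Pou3f2: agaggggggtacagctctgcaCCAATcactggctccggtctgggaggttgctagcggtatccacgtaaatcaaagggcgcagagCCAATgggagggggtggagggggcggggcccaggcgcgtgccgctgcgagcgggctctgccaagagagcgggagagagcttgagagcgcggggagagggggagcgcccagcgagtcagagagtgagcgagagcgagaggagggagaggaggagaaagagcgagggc
Pou3f3: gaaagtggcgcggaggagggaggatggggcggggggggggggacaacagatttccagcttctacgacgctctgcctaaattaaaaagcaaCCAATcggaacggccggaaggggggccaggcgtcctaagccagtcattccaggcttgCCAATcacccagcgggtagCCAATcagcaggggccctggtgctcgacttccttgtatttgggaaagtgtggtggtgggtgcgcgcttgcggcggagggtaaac

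CCAAT, the core of the site bound by the factor NF-Y at many promoters, was searched on both strands, as were the octamer ATGCAAAT of POU factors, the Sox-type motif AACAAAG and the TATA motif TATAAA. The Pou3f2 window holds CCAAT at 2 places, which begin 229 and 166 bases before the start. The Pou3f3 window holds it at 3 places, which begin 160, 103 and 84 bases before the start. Every copy is on the strand of the gene. Of 32851 RefSeq windows of the same length, 33.8% hold CCAAT at least once, 10.1% at 2 or more places and 2.79% at 3 or more. The other motifs were not matched in either window, and are held by 1.60% (ATGCAAAT), 5.03% (AACAAAG) and 12.4% (TATAAA) of all windows. The motif letters were looked for after the sequences had been read, and a match is not a bound site.

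G and C made up 66.8% of the Pou3f2 window and 60.8% of the Pou3f3 window, against a median of 52.4% over all windows and 63.4% over the 14 of 21 measured Sox and POU relatives that had a window. CCAAT was also found in 8 of those 14. Across 4071 to 4129 genes per array, Pearson's r between the GC share of the window and the log2 ratio was -0.02 on replicates 1 and 2, -0.088 on replicate 3 and 0.024 on replicate 4. These are correlations across genes that share an array and a pool.

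In the Sox family, 15 relatives of Sox3 were measured among 19 listed. The median of their means over replicates 2 to 4 was -0.36, against -0.02 for all 5051 named genes. Of the 15, 13 had a mean below 0, where 52.9% of all genes did, and 8 were below 0 on each of the 3 arrays, where 17.3% of all genes were. Limma called 0 of the 15 at an adjusted p under 0.05. It listed 5 at an unadjusted p under 0.05, all negative, where 4.06% of all probes were. The median rested in part on replicate 4. By array it was 0.01, -0.22, -0.25 and -0.59 on replicates 1 to 4 in turn, and the median of the means without replicate 4 was -0.14. With replicate 1 as deposited, 5 of the 15 stayed below 0 on all 4 arrays (7.86% of all genes), and with replicate 1 turned 3 did (9.45%).

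Of the other SoxB1 genes, Sox1 kept to 1 sign over the arrays and Sox2 did not. Sox1, which like Sox3 marks neural progenitors, had -0.68, -0.18, -0.45 and -0.65 on replicates 1 to 4 and a mean of -0.43 ± 0.24 (SD, n = 3) over replicates 2 to 4. All its values were below 0, as were those of Sox3 through the choice made. Sox2, the SoxB1 factor of neural stem cells and pluripotent cells, had 0.17, 0.16, 0.59 and -0.28, with a mean of 0.16 ± 0.44. It crossed 0. On every array it was above Sox3, as most probes were, since 3.40% to 10.9% of them lay at or below Sox3. Neither gene was called by limma, with an adjusted p of 0.490 for Sox1 and 0.799 for Sox2. Both were chosen as the closest relatives of Sox3 after their values had been seen.

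By the naming rule, the other Sox genes with the smallest p were Sox17, Sox18 and Sox12. Sox17, a factor of endoderm and arterial endothelium, had -0.73 on replicate 2, -2.38 on replicate 3 and -1.11 on replicate 4, and 0.26 on replicate 1. Its mean over replicates 2 to 4 was -1.41 ± 0.86 (SD, n = 3). Sox18, a factor of vessel and lymphatic endothelium, had a mean of -0.48 ± 0.14 and 0.21 on replicate 1. Both endothelial factors thus had a deposited sign on replicate 1 opposite to that on the other arrays. Sox12, a SoxC factor of neural and mesenchymal cells, had -0.45 on replicate 1 and a mean of -0.46 ± 0.19 over the others. It was below 0 on all 4 arrays (7.86% of all genes), as were the members through their choice. In limma the adjusted p was 0.454 for Sox17 and 0.473 for Sox18 and Sox12. The vessel marker list, which holds Sox17 and Sox18, had 7 of 10 measured genes with a mean below 0 (52.9% of all genes). Its median was -0.39, and limma listed 5 of its 10 probes as negative at an unadjusted p under 0.05 (4.06% of all probes). The part of vessels in the Sox values was not tested.

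Other relatives below 0 on every array were Sox4, a SoxC factor of newborn neurons, Sox8, and Sox9, a factor of radial glia, with means of -0.36 ± 0.25, -0.38 ± 0.23 and -0.37 ± 0.41 (SD, n = 3). Sox11, the close relative of Sox4, ranged from -0.99 on replicate 4 to 0.53 on replicate 3. These 4 genes were chosen after their values had been seen. The highest mean in the family was 0.61 ± 0.64 for Sox14, a repressor of the SoxB2 group.

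The POU family gave 6 measured relatives of 13 listed, beside Pou3f2 and Pou3f3. Their median was -0.02, equal to that of all named genes, with 3 means below 0 (52.9% of all genes) and 3 above. Without replicate 3 the median was 0.05, and without replicate 2 it was -0.07. Limma called 0 of their 7 probes. It listed 1 negative and 1 positive probe at an unadjusted p under 0.05 (4.06% and 5.61% of all probes). The lowest of these relatives was Pou2f3 at -0.46, beside -0.52 for Pou3f2 and -0.51 for Pou3f3.

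Class III also holds Pou3f1 and Pou3f4, and its 4 genes did not share a sign. Pou3f1, a regulator of Schwann cell myelination that is also made in cortical neurons, had -0.07, 0.06, 0.06 and -0.39 on replicates 1 to 4. Its mean over replicates 2 to 4 was -0.09 ± 0.26 (SD, n = 3). Pou3f4, the X-linked factor needed for hearing and expressed in the developing striatum and hypothalamus, had 0.36, 0.32, 0.25 and 0.11, all above 0. Its mean was 0.23 ± 0.11. Any gene above 0 on all 4 arrays, as 7.96% of genes were, lies above Pou3f2 and Pou3f3 through their choice. Limma gave an adjusted p of 0.861 for Pou3f1 and 0.632 for Pou3f4. They were chosen as class III genes after their values had been seen.

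Outside class III, the naming rule gave Pou2f3 and Pou2f2. Pou2f3, a factor of epidermis and tuft cells, had -0.10 on replicate 1 and -0.51, -0.44 and -0.42 on the others, so that its mean over those 3 arrays was -0.46 ± 0.05 (SD, n = 3). Its adjusted p in limma was 0.473. Pou2f2 (Oct2), best known from B cells, had 2 probes that disagreed. The means were 0.40 ± 0.10 at the probe with the smaller p and -0.29 ± 0.57 at the other. Limma gave them an adjusted p of 0.484 and 0.705. Such a disagreement could not be looked for in the members, which have 1 probe each.

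**Figure D3:**
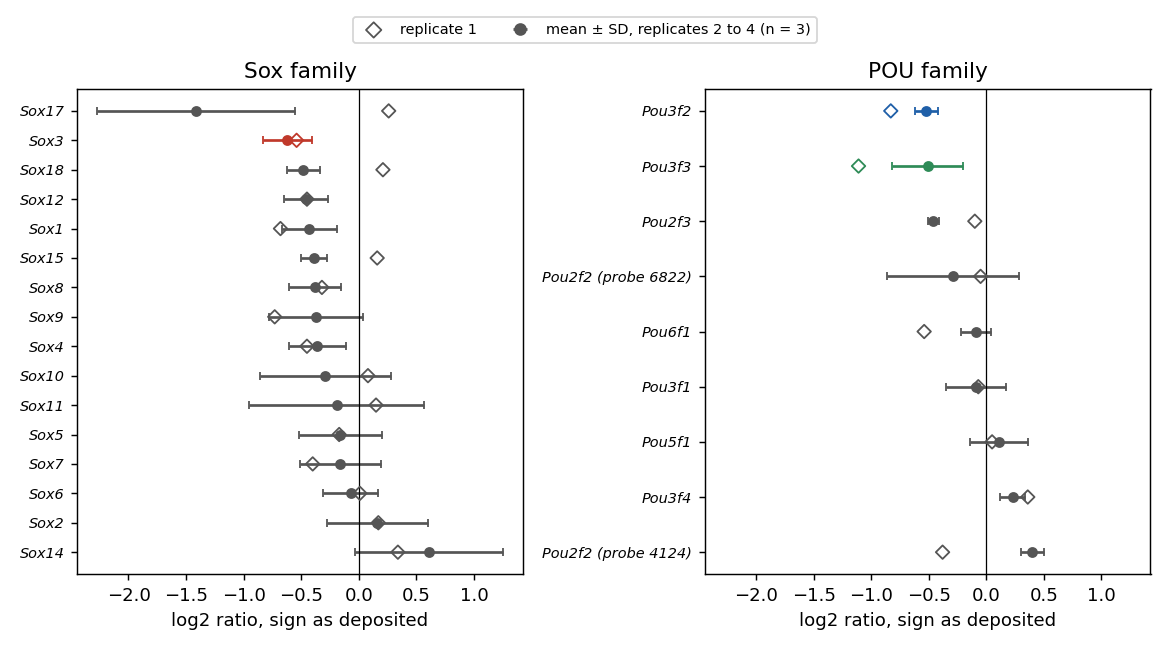
Measured genes of the Sox family (left) and the POU family (right), ordered by the mean log2 ratio over replicates 2 to 4, sign as deposited. Filled points with bars are means ± SD (n = 3), open diamonds are replicate 1, and the members are coloured. Sox3 lies at -0.62 in the Sox panel, where only Sox17 lies lower, at -1.41, and Pou3f2 and Pou3f3 head the POU panel at -0.52 and -0.51, whereas Pou3f4 lies at 0.23. The members were chosen on these values, so nothing is read from their place in the panels.

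Genes of neural progenitors, the cells in which SoxB1 factors act, had 35 measured members of 45 listed. Their median mean was 0.04, with 14 below 0 (52.9% of all genes) and 21 above. That median was 0.08 without replicate 2 and -0.07 over 4 arrays with replicate 1 as deposited. Limma called 0 of 36 probes. It listed 2 negative and 2 positive probes at an unadjusted p under 0.05 (4.06% and 5.61% of all probes). Ednrb, the endothelin receptor of radial glia, had 0.80 ± 0.21 (SD, n = 3), and Prom1, a membrane protein of progenitors, had 0.54 ± 0.36. Emx1, a homeobox factor of the dorsal telencephalon, had -0.63 ± 0.37, and Id1, an inhibitor of bHLH factors, had -0.36 ± 0.13. Emx1 and Id1 were also at -0.50 on replicate 1, so both were below 0 on every array. The adjusted p in limma was 0.450 for Ednrb, 0.473 for Prom1 and Emx1 and 0.515 for Id1.

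Genes of cortical layer neurons, the progeny in whose production Pou3f2 and Pou3f3 take part, had 23 measured members of 30 listed and a median of -0.07. Of these, 16 had a mean below 0 (52.9% of all genes) and 7 above. Limma listed 2 negative and 2 positive probes at an unadjusted p under 0.05 (4.06% and 5.61% of all probes) and called 0. Cux1, a factor of upper-layer neurons, had -0.48, -0.71 and -0.27 on replicates 2 to 4 and 0.02 on replicate 1. Neurod2, a bHLH factor of projection neurons, had -0.44 ± 0.25 (SD, n = 3) and 0.69 on replicate 1. Ldb2, a LIM-domain cofactor, had 0.49 ± 0.24, and Dcx, the microtubule protein of migrating neurons, had 0.40 ± 0.21. On replicates 2 to 4, 5 of the 23 were below 0 on every array (17.3% of all genes) and 4 above 0 (16.3%). Without replicate 3 the median was -0.02. The adjusted p in limma was 0.473 for Cux1 and Ldb2, 0.488 for Neurod2 and 0.502 for Dcx.

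Genes of hypothalamus and pituitary, where Sox3 and Pou3f2 are also needed, had 20 measured members of 32 listed. They had 12 means below 0 (52.9% of all genes) and a median of -0.05. That median was 0.01 without replicate 4 and -0.08 without replicate 3. Limma listed 1 positive and 0 negative probes at an unadjusted p under 0.05 (5.61% and 4.06% of all probes) and called 0. That gene was Ghrh, the growth hormone-releasing hormone, at 0.83 ± 0.57 (SD, n = 3) with an adjusted p of 0.473. Next by p came Sim1, a factor of hypothalamic neuroendocrine cells, at -0.61 ± 0.64, its partner Arnt2 at -0.34 ± 0.26, and Nkx2-1, a factor of the ventral forebrain, at -0.31 ± 0.42. Their adjusted p in limma was 0.525, 0.550 and 0.635.

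Genes of myelinating glia, in which POU and Sox factors also act, had 11 measured members of 16 listed. They had 7 means below 0 (52.9% of all genes) and a median of -0.10. That median was -0.02 without replicate 2 and -0.23 without replicate 3. Limma listed 0 of 12 probes at an unadjusted p under 0.05 (9.67% of all probes) and called 0. The smallest p belonged to the myelin protein Pmp22 at 0.39 ± 0.23, Olig1 at 0.29 ± 0.12, the neuregulin receptor Erbb3 at -0.61 ± 0.93 and Sox10 at -0.29 ± 0.57 (SD, n = 3). Erbb3 had 2 probes that disagreed in size, and its mean over both was -1.18, the lowest of the list. Their adjusted p in limma was 0.515, 0.558, 0.604 and 0.705.

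**Figure D4:**
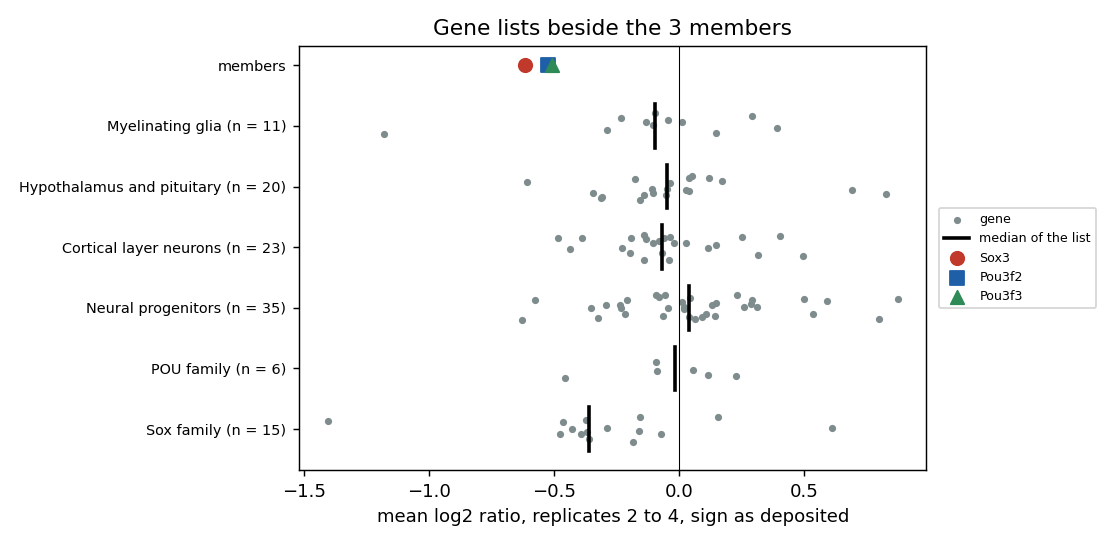
Mean log2 ratio over replicates 2 to 4, sign as deposited, of each measured gene of the 6 lists (grey points, members left out) with the median of the list (black line), and of Sox3, Pou3f2 and Pou3f3 in the top row. The Sox family has the median farthest from 0, at -0.36, and the other medians lie between -0.10 and 0.04, while the members lie at -0.62, -0.52 and -0.51.

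Likeness of pattern was measured as the root mean square difference of the deposited log2 ratios over 4 arrays, for 5024 genes. Sox3 was most like Wwtr1, a coactivator of the Hippo pathway (0.144), Pcsk1n, an inhibitor of a prohormone convertase (0.149), the latent TGF-beta binding protein Ltbp1 (0.159) and Fjx1 (0.169), where the median gene differed by 0.676. Wwtr1, for instance, had -0.39, -0.75, -0.68 and -0.16 on replicates 1 to 4. Pou3f2 was most like Sox1 (0.191), the Krüppel-like factor Klf13 (0.195), the neuronal RNA-binding protein Elavl3 (0.207) and Sox12 (0.207), against a median of 0.686.

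Pou3f3 was most like Phf2, a histone demethylase of the PHD finger family, which had -1.01, -0.40, -0.72 and -0.27 on replicates 1 to 4 and differed by 0.0869. Next came the nuclear receptor coactivator Ncoa3 (0.175), Coq8a, a protein of coenzyme Q synthesis, (0.187) and the kainate receptor subunit Grik5 (0.197), against a median of 0.796. The members were not each other's nearest genes. Sox3 ranked 17 for Pou3f2 and 86 for Pou3f3, and Pou3f2 ranked 37 for Sox3 and 38 for Pou3f3. Pou3f3 ranked 201 for Sox3 and 45 for Pou3f2. The members were chosen on these same values, so nothing is read from their ranks. With 4 arrays, many genes come close to a given pattern.

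Sox3 is X-linked, and the arrays differed in sex-linked RNA. Xist, the RNA of the inactive X, had -6.03, 0.90, 1.54 and -3.16 on replicates 1 to 4 in turn. The Y-linked gene Uty had 1.50, -1.61, -1.12 and 0.35, opposite in sign to Xist on each array. Both were chosen after their values had been seen. Over the 5 measured sex-linked genes of 7 listed, the median was 0.54, -0.27, 0.27 and 0.04 on replicates 1 to 4. This median had the sign of Uty on replicates 1, 2 and 4, but that of Xist on replicate 3. The part of sex in the values of Sox3 was not tested. Among other cell types of the dissection, the median of replicates 2 to 4 was -0.36 over 7 meningeal genes, -0.25 over 5 blood genes, -0.20 over 5 choroid plexus genes, -0.08 over 8 striatal genes and 0.56 over 7 microglial genes. Means were below 0 for 7 of 7, 4 of 5, 3 of 5, 4 of 8 and 1 of 7 of them, where 52.9% of all genes had one. The part of these cells in the values of the members was not tested.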

How the data were processed

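The values were the authors' deposited log2 ratios of the series matrix, 1 column per array, with 0 further columns left unused. Log base 2 was taken from their size, which reached 6.85. How the authors corrected and normalized the signals, and the log base, is not given in the sources used here. Of 6856 probes, 6269 had a single symbol in the platform annotation, 6 several and 581 none. Entrez IDs of 6250 were found in RefSeq of GRCm38.p6, which changed 0 symbols. Probes were averaged by symbol for list medians and likeness.

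Mean log2 ratios of replicates 2 to 4 were tested against 0, two-sided, with limma 3.58.1 (lmFit, eBayes; R 4.3.3) over all 5720 probes with 3 values, adjusted by Benjamini-Hochberg at 0.05. P-values set each mean against the spread between these null samples. An offset of the dye or the pool shared by the arrays enters the mean and not that spread. On simulated data for this comparison (5720 probes), the test found 54.4% of the 2-fold changes and 96.1% of the 4-fold changes, with 4.48% false calls. The simulated noise was independent and normal, with the variance prior of the fit. It held no dye effect and no error of the shared pool, so these rates hold only under that model. The members and the lists were chosen with earlier results of these data known. Named genes were the members, the 4 with the smallest p per list, of several probes the one with the smallest p, and the 4 most alike per member. A list of 7 sex-linked genes and 7 lists of tissue markers served as controls. Alternatives were the sign of replicate 1, centring, scale, missing values, the variance prior, array weights and leaving out replicates. Promoter windows came from RefSeq. Figures were drawn with matplotlib 3.10.9.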

Additional observations from a re-analysis of the deposited data

Results flagged for a closer look

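In 44 named genes, the 4 arrays were searched for a value far from the other 3, with replicate 1 as deposited and turned, which made 88 sets. Chance alone gives about 1 such set in 20, and 3 were found. With replicate 1 turned, Pou3f2 had 0.83 on replicate 1, whereas its other arrays lay between -0.62 and -0.43. Because Pou3f2 was chosen for values below 0 as deposited on every array, turning replicate 1 puts that array on the other side of 0 by construction, and nothing is read from it. Likewise with replicate 1 turned, Pou2f3 had 0.10 on that array and between -0.51 and -0.42 on the others. Pou3f1 had -0.39 on replicate 4, whereas its other arrays, with replicate 1 turned, lay between 0.06 and 0.07.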

How the results depend on the processing

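Of 85 values recomputed under an alternative, 70 moved by less than the spread between replicates, or for counts by less than 1.5 times. Turning replicate 1 in a mean of 4 arrays moved Sox3 to -0.33, Pou3f2 to -0.19 and Pou3f3 to -0.10, and it moved the median of cortical layer neurons to -0.05, the Sox relatives below 0 on every array to 3 and the POU relatives to 0. With replicate 1 as deposited, the Sox count was 5, the median of neural progenitors was -0.07 and limma called 2 probes. Limma called 1 probe with a robust variance prior, and 3 with array weights, which listed 1067 at an unadjusted p under 0.05. When each of replicates 2 to 4 was left out in turn, the mean ranged from -0.73 to -0.52 for Sox3, from -0.57 to -0.48 for Pou3f2 and from -0.65 to -0.34 for Pou3f3. The median of the Sox relatives then ranged from -0.43 to -0.14, that of cortical layer neurons from -0.09 to -0.02, and the number of probes at an unadjusted p under 0.05 in limma from 236, without replicate 2, to 621, with 0 called at each step. Each member had 1 probe, so that a median of probes gave no other value. No paired analysis was possible because every array is a ratio of its own null sample to the same pool. Counts of relatives below 0 were added after seeing the data. The number of arrays limits every mean here.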
